A study of Mus musculus with 6 samples.

Results

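Integrins are the cell surface receptors, each built of 1 alpha and 1 beta chain, that hold a fibroblast to the matrix around it. On the inside of the membrane their short tails are joined to actin filaments by the proteins of the focal adhesion. Talin and kindlin bind the beta tail and switch the receptor on, vinculin, alpha-actinin, filamin and tensin carry the link to actin, and kinases such as FAK and Src signal from the site. The genes described here are the mouse protein-coding genes for the numbered alpha chains, the alpha V chain and the numbered beta chains, found by symbol, together with a list of focal adhesion genes chosen by function. They came to 43 of the 46603 genes in the count tables, 21 integrin subunits and 22 focal adhesion genes, and every listed gene was found.

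Both groups were mouse embryonic fibroblasts (MEFs) of the BALB/c strain, labelled as taken from 10.5 day old embryos, with 3 RNA sequencing libraries of wild-type cells (WT) and 3 of cells with a beta-actin knockout (KO). All 6 libraries came from cells kept for 6 days in adipocyte differentiation medium, which holds insulin, dexamethasone, the phosphodiesterase inhibitor IBMX and ascorbic acid. The comparison asks which transcripts differ between the genotypes under these conditions, and no library from untreated cells was analysed here. The labels do not say whether the 3 libraries of a genotype came from separate embryos, cultures or clones, so p-values measure only the spread between these libraries, which may be technical.

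The libraries held 26955708 to 38619711 counts. CPM is the usual scaling of counts to library size, and levels in CPM below are after TMM. Before TMM, 3 counts, the limit that a count of 0 allows, corresponded to 0.0777 to 0.111 CPM. Actb, the targeted gene, had 60501, 60582 and 53894 counts across WT and 276, 1988 and 1850 across KO replicates 1, 2 and 3. KO replicate 1 stood apart from the other KO libraries: across tested genes its log2 CPM correlated with theirs at 0.968 and 0.970, against 0.992 between KO replicates 2 and 3 and 0.989 to 0.991 among WT libraries. Of the 40 members that could be tested, 5 lay more than 1 log2 unit from the mean of the other KO libraries in replicate 1, and 0 differed that much between replicates 2 and 3. Fibroblast markers (9 genes) summed to 1219 to 1390 CPM in WT and 2758 to 2978 in KO, but in WT Thy1 had 1 count in all and Col1a2 had 6 to 13 counts per library. The 6 adipocyte markers summed to 4.84 to 9.61 CPM in WT and 8.77 to 109 in KO, and Lep was at 0 in all libraries. Nearly all of this was Fabp4, at 109 CPM in KO replicate 1 and 8.59 and 16.2 in the others, which was not called (log2 fold change 2.56, adjusted p = 0.0686). The 7 smooth muscle markers summed to 104 to 132 CPM in WT and 4602 to 12848 in KO. The largest part was Acta2, itself an actin gene, at a mean of 62.2 CPM in WT and 7322 in KO. Of the 7, 6 were called higher, where 13.8% of all tested genes were. Myh11 was not called, at 0.76 and 0.815 CPM (adjusted p = 0.825).

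RefSeq promoter windows on GRCm38.p6, from 250 bases before to 50 after a transcription start, were matched to 33 of the 43 members. Members that changed together invite a look at shared motifs, so 4 were searched on both strands, the CArG box that SRF binds, the GC box GGGCGG, the TEAD motif CATTCC and the AP-1 motif TGANTCA. A CArG box was in the window of 3 members, Fermt2, Vcl and Itgb6, which is 9.09% of the 33, against 1.81% of all genes with a window and 1.58% of those tested for expression. The 33 include Itgb6, Ilk and Itga4, which had too few counts to be tested. The shares of tested genes are therefore not a fully matched base for any of the 4 motifs. The GC box was in 22 members, 66.7%, close to the 68.4% of tested genes, the TEAD motif in 7 (21.2% against 14.5%) and the AP-1 motif in 4 (12.1% against 6.29%). The 190 bases from 250 to 61 before the start are shown for the 2 expressed CArG-bearing members, with that box in capitals. Below them stand 3 integrin genes whose transcripts rose, with the GC box in capitals where there is one. The windows are Fermt2 (chr14:45530126-45530315, minus strand), Vcl (chr14:20929148-20929337, plus strand), Itga5 (chr15:103366852-103367041, minus strand), Itga11 (chr9:62677605-62677794, plus strand) and Itgb1 (chr8:128685404-128685593, plus strand). Each is written 5′ to 3′ on the strand of its gene.
Fermt2: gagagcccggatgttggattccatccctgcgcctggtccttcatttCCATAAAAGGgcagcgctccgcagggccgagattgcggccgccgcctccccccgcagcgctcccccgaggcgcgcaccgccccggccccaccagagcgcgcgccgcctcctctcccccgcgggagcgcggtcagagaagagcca
Vcl: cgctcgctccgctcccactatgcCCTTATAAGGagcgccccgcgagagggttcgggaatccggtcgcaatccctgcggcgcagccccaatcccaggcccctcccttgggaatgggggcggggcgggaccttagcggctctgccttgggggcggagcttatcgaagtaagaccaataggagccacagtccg
Itga5: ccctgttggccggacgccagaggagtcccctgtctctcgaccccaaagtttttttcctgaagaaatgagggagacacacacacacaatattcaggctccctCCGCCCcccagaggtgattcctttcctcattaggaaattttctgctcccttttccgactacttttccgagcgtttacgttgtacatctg
Itga11: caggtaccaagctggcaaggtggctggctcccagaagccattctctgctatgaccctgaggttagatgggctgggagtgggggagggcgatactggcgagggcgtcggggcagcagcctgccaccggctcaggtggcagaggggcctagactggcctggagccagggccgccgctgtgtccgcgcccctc
Itgb1: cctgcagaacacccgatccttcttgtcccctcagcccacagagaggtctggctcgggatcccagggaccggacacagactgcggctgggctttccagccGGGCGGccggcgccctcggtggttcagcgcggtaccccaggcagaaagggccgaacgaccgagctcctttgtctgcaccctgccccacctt
The box begins 204 bases before the start in Fermt2 and 227 in Vcl, reading CCATAAAAGG and CCTTATAAGG. Of the 12 higher members with a window, 1 had a CArG box, 8 a GC box, 3 a TEAD motif and 0 an AP-1 motif. A match says only that the letters are there.

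Transcripts of the adhesion machinery were more often higher than lower in KO cells. Of 40 tested members 15 rose, 5 fell and 20 were not called at an adjusted p below 0.05 over all tested genes (edgeR quasi-likelihood test). Over all 15009 tested genes 28.3% were called, 13.8% higher and 14.5% lower, against 37.5% of the members higher and 12.5% lower. The members' median log2 fold change (KO over WT) was 0.46, against 0.01 over all tested genes, and their median level was 114 CPM, against 24.1 CPM over all tested genes. Members were thus more abundant than the typical tested gene, and the part of level in these counts was not tested. Among focal adhesion genes 9 of 21 tested rose and Src alone fell, with a median of 0.47. The integrins split, with 6 of 19 tested higher and 4 lower and a median of 0.17. With a log2 change of at least 1 as well, 11 members were higher and 4 lower, against 15.3% of all tested genes, 6.68% higher and 8.62% lower. All 10 called integrins were among them. The counts moved with the libraries used: 21 higher and 6 lower without KO replicate 1, with 42.3% of all tested genes called, and 10 higher and 2 lower without WT replicate 2, with 14.9% called. Without WT replicate 1 they were 10 and 4, with 17.2% called. Without WT replicate 3 or KO replicate 3 they were 14 and 3, with 18.4% and 20.7% called. Ilk, Itga4 and Itgb6 had too few counts to test.

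**Figure D1:**
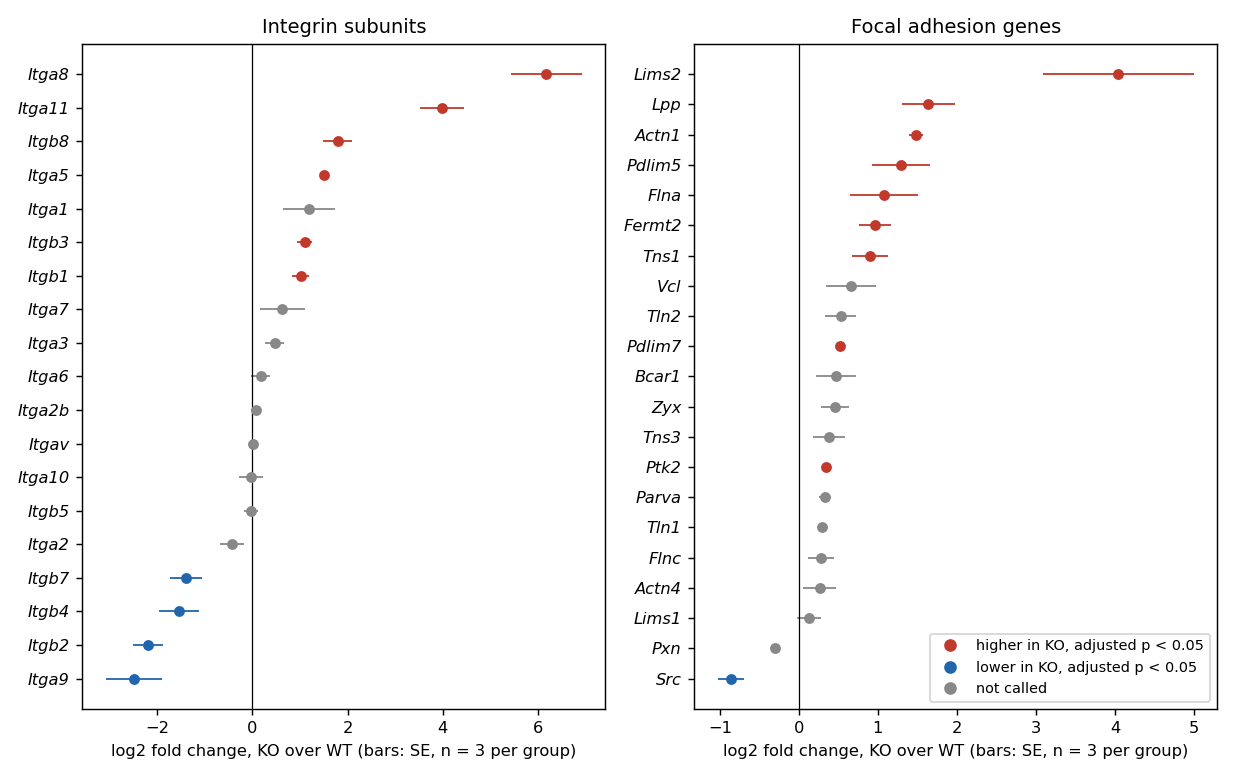
Log2 fold changes (KO over WT, x axis) of the 19 tested integrin subunits and the 21 tested focal adhesion genes, with the standard error of the difference in mean log2 CPM as bars and n = 3 libraries per group. Red marks the 15 members called higher and blue the 5 called lower. Integrins reach from -2.48 for Itga9 to 6.17 for Itga8, and focal adhesion genes lie between -0.86 for Src and 4.04 for Lims2.

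Both chains of the classical fibronectin receptor, Itga5 and Itgb1, rose. Itga5 encodes the alpha 5 chain, which with beta 1 binds the RGD site of fibronectin (ENSMUSG00000000555, chromosome 15, 103344286 to 103366763, GRCm38). It had 3152, 2994 and 3020 counts across WT and 7574, 8483 and 11329 across KO, or 98.3 ± 3.98 and 281 ± 28.4 CPM (SD, n = 3). The groups lay far apart, and the log2 fold change was 1.52 (SE 0.09, adjusted p = 0.000209). Itgav, for the alpha V chain of the vitronectin receptors (ENSMUSG00000027087, chromosome 2), had 3541, 4100 and 3876 counts across WT and 3175, 4268 and 4816 across KO. Its levels of 124 ± 10.8 and 126 ± 5.92 CPM overlapped (log2 fold change 0.02, SE 0.08, adjusted p = 0.899), and the sign of that difference turned with upper-quartile and library-total scaling and without WT replicate 1 or KO replicate 3. Itga8, whose product pairs with beta 1 and binds nephronectin (ENSMUSG00000026768, chromosome 2), had 4, 2 and 9 counts across WT and 572, 312 and 193 across KO. It rose by 6.17 log2 units (SE 0.74, adjusted p = 0.0011), from 0.164 ± 0.125 to 12.0 ± 8.45 CPM, with KO replicate 1 the highest, and by 5.46 without that library. The exons of Itga8 share 372 of 7368 bases with a gene on the opposite strand. Itga2b, the alpha chain of the platelet fibrinogen receptor, stayed at 12.1 ± 1.43 and 12.8 ± 0.96 CPM (adjusted p = 0.748).

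Among the collagen receptors Itga11 stood out. It encodes the alpha 11 chain, which with beta 1 binds fibrillar collagen on fibroblasts (ENSMUSG00000032243, chromosome 9, 62677826 to 62783982). WT libraries had 123, 71 and 186 counts and KO libraries 2178, 1998 and 1954. The lowest KO library was at 53.1 CPM and the highest WT library at 6.28, and the log2 fold change was 3.97 (SE 0.46, adjusted p = 0.00043), from 4.12 ± 2.04 to 64.7 ± 15.1 CPM. Itga1, for a receptor of basement membrane collagen, had 702, 701 and 1159 counts across WT and 2698, 1866 and 1235 across KO, and KO replicate 3 lay within the WT range. It was not called (log2 fold change 1.19, SE 0.54, adjusted p = 0.0653), passed without KO replicate 3 (adjusted p = 0.0212), in DESeq2 (0.0133) and in the fit of unfiltered genes (0.0167), and had 0.68 without KO replicate 1 (adjusted p = 0.094). Itga10 and Itga2, the other collagen-binding chains, were near 1 CPM or below in both genotypes and were not called.

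The laminin-binding alpha chains gave 0 calls of 3 at the threshold, where 28.3% of all tested genes were called. Itga3, the most abundant of them, measured 85.5 ± 9.35 CPM in WT and 118 ± 23.2 in KO (log2 fold change 0.47, adjusted p = 0.072), and KO replicate 1 at 92.9 CPM lay inside the WT range of 75.5 to 94.0. Without that library Itga3 was called at 0.62 log2 (adjusted p = 0.003), and it was also called with DESeq2. Itga6 had 26.9 ± 4.56 and 30.4 ± 5.05 CPM. Itga7, the laminin receptor of muscle, had 17.5 ± 1.82 and 27.1 ± 14.0, with KO libraries of 41.6, 13.7 and 26.1 CPM on both sides of WT. Itga7 was called without KO replicate 2. Itga9, which binds tenascin and VCAM1, had 22, 12 and 10 counts across WT and 0, 5 and 3 across KO (log2 fold change -2.48, SE 0.59, adjusted p = 0.0338). That call was lost without WT replicate 1, 2 or 3 or KO replicate 3 (adjusted p = 0.123, 0.0801, 0.0675 and 0.0917) and with the replicate number as a block (0.0906). Itga4, the other chain of this kind, had at most 1 count in any library.

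**Figure D2:**
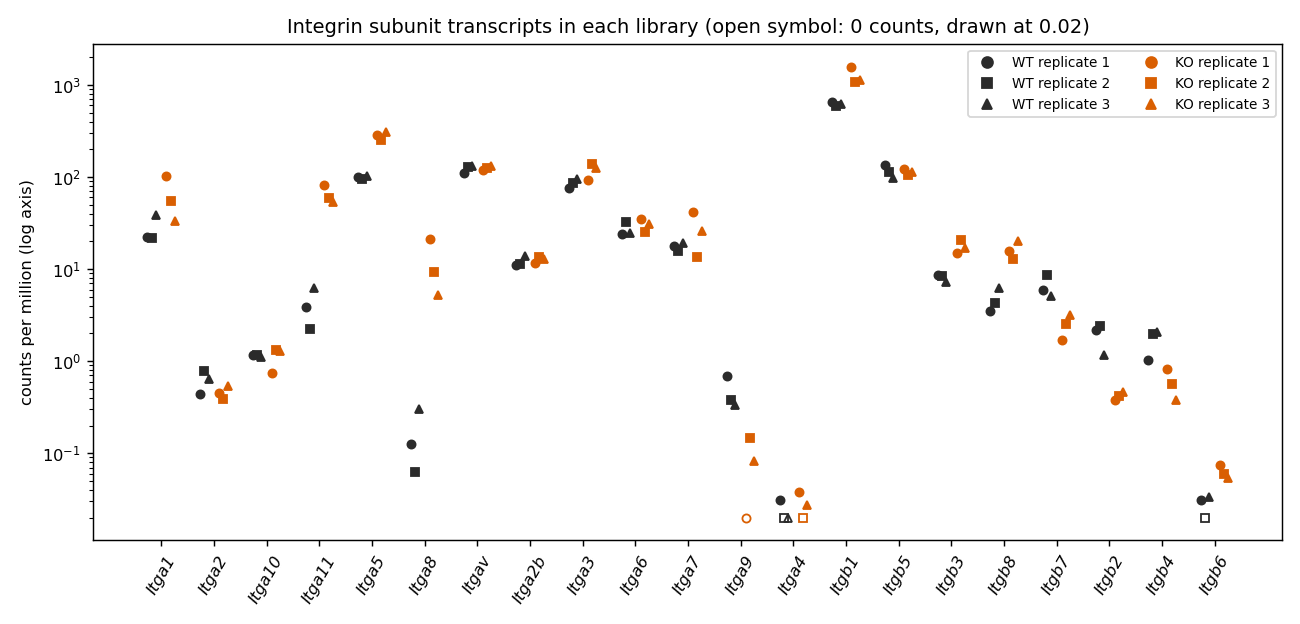
Level of each integrin subunit in each library, in CPM on a log axis, with WT in black and KO in orange and 1 symbol shape per replicate. Open symbols drawn at 0.02 stand for 0 counts. Itga11 and Itga8 are separated by the widest gaps, Itga5, Itgb1, Itgb3 and Itgb8 are higher in every KO library, and Itgb7, Itgb2 and Itgb4 are lower in every KO library.

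Of the 7 tested beta chains 3 rose, 3 fell and Itgb5 was not called. The called share was 85.7%, against 28.3% of all tested genes, 13.8% higher and 14.5% lower. Itgb1, the beta 1 chain shared by most fibroblast integrins (ENSMUSG00000025809, chromosome 8, 128685654 to 128733200), had 20920, 18862 and 18569 counts across WT and 42174, 36092 and 41724 across KO. All KO libraries were above all WT libraries, at 1262 ± 280 against 625 ± 32.3 CPM, a log2 fold change of 1.01 (SE 0.18, adjusted p = 0.00537). Itgb3, the beta chain of the alpha V beta 3 receptor for vitronectin and osteopontin, had 278, 269 and 216 counts across WT and 402, 694 and 619 across KO and rose by 1.10 log2 units (SE 0.15, adjusted p = 0.00405). Itgb8, whose product pairs with alpha V and activates latent TGF-beta, had 113, 135 and 185 counts across WT and 415, 434 and 747 across KO and rose by 1.80 log2 units (SE 0.30, adjusted p = 0.00311). Both rose without any overlap of the groups, from 8.16 to 17.5 and from 4.68 to 16.2 CPM. Itgb5, for another partner of alpha V, measured 115 ± 18.3 and 113 ± 8.15 CPM (log2 fold change -0.02, adjusted p = 0.912). The sign of that difference turned without WT replicate 1 or KO replicate 2.

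The beta chains that fell are best known from leukocytes and epithelia, and all 3 were below 10 CPM in every library. Itgb2, the leukocyte beta chain, had 69, 77 and 35 counts across WT and 10, 14 and 17 across KO and fell by 2.19 log2 units (SE 0.32, adjusted p = 0.00459). Itgb7, also of lymphocytes, had 187, 272 and 150 counts across WT and 45, 86 and 116 across KO and fell by 1.39 log2 units (SE 0.34, adjusted p = 0.0156, or 0.0725 without WT replicate 2). Leukocyte markers summed to 25.2 to 45.2 CPM in WT and 24.9 to 34.6 in KO, Tyrobp was at 0 and Ptprc, the pan-leukocyte CD45 gene, had 1 count in all libraries together. Of the 10 leukocyte markers 5 could be tested and 2 fell, Fcer1g and Coro1a, where 14.5% of all tested genes fell. Itgb4, the beta chain of epithelial hemidesmosomes, had 33, 63 and 61 counts across WT and 22, 19 and 14 across KO (log2 fold change -1.53, SE 0.42, adjusted p = 0.0296), and lost its call without WT replicate 2 or 3, KO replicate 2 or 3 (adjusted p = 0.11, 0.101, 0.0728 and 0.0934) or with the replicate block (0.0871). Epithelial markers went both ways beside it: Epcam had 34, 48 and 45 counts across WT and 0 in each KO library while Krt18 and Krt19 rose. The part of these markers in the changes of Itgb2, Itgb7 and Itgb4 was not tested. In bulk RNA, fewer cells of a type and less RNA per cell cannot be told apart.

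Levels of different subunits were compared per kilobase of annotated exon, as shares of the sum over the 13 alpha or the 8 beta genes described here. Integrin genes with other kinds of symbol were left out of these sums, and the highest of them, Itgae, was at 0.353 CPM per kb in WT and 0.567 in KO. Summed over the 13 alpha genes the level was 56.5 ± 3.88 CPM per kb in WT and 116 ± 5.68 in KO, and over the 8 beta genes 191 ± 11.1 and 347 ± 70.1. Alpha 5 was first in both genotypes and made up 37.9%, 34.1% and 34.1% of that alpha sum in WT and 47.7%, 46.3% and 52.6% in KO. The alpha 11 share went from 1.41% ± 0.62 to 10.8% ± 2.25, which moved it from the eighth place to the third. The alpha V share went from 20.4% ± 0.98 to 10.1% ± 0.78 and the alpha 3 share from 26.5% ± 1.29 to 18.0% ± 4.27, although neither gene's own level was called. Beta 1 made up 80.4% ± 2.14 of the beta sum in WT and 89.0% ± 1.61 in KO, and beta 5 17.0% ± 1.93 and 9.35% ± 1.15. In each of these 6 shares the groups did not overlap, and the exact permutation test gave p = 0.1, the smallest that 3 against 3 libraries allow, or 0.131 adjusted over the 21 subunits. Other subunits reached the same p, also some with shares under 1% in both genotypes, such as Itga2, Itga10 and Itgb4. This p therefore does not mark out the 6 named shares. Shares of 1 library add to 100%, so they are not independent of each other.

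**Figure D3:**
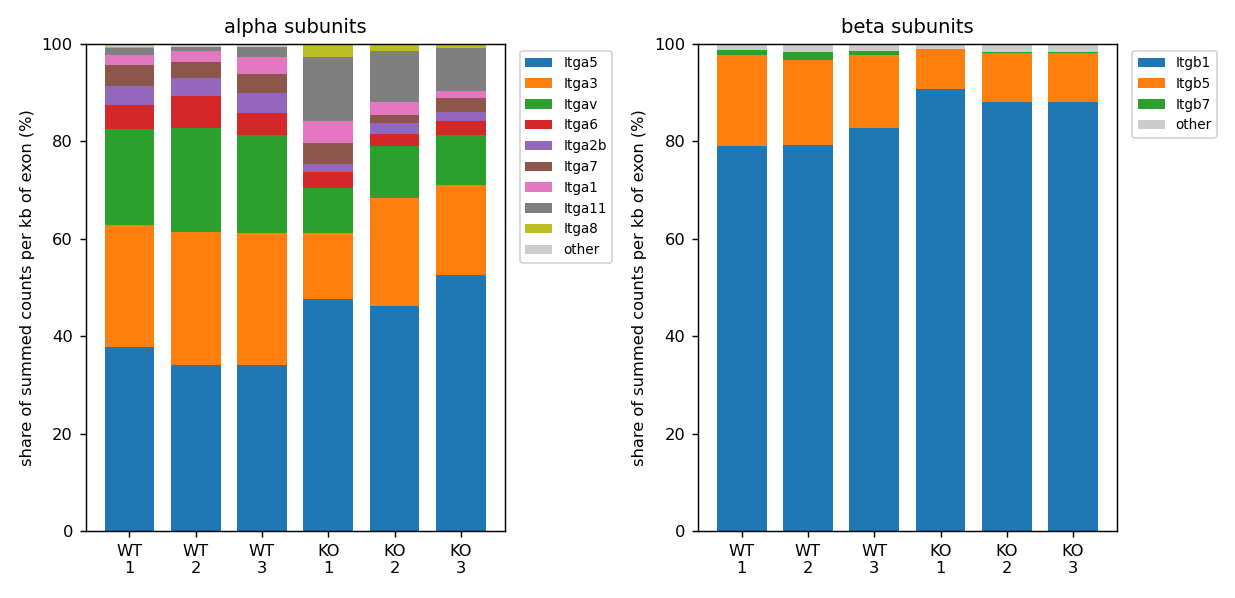
Share of each subunit in the summed counts per kb of exon of the 13 alpha (left) or 8 beta (right) integrin genes described here, in percent, 1 bar per library, with subunits under 1% in both genotypes pooled as other. The Itga5 and Itga11 bands are wider and the Itgav and Itga3 bands narrower in all 3 KO libraries, and Itgb1 takes 88.0% to 90.8% of the beta sum in KO against 79.1% to 82.9% in WT.

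Among the proteins that link integrins to actin, 3 of 9 genes rose and 0 fell, or 33.3% called. That share was near the 28.3% called over all tested genes, where 13.8% were higher and 14.5% lower. Actn1, for alpha-actinin 1, which crosslinks actin filaments at adhesions (ENSMUSG00000015143, chromosome 12, 80167547 to 80260371), had 2698, 2778 and 2581 counts across WT and 7127, 8008 and 8078 across KO. WT libraries were nearly alike at 86.4 ± 1.40 CPM, KO libraries were at 241 ± 24.2, and the log2 fold change was 1.48 (SE 0.08, adjusted p = 0.000204). Flna, for filamin A, which crosslinks actin and binds beta tails (ENSMUSG00000031328, chromosome X), had 25179, 23060 and 22184 counts across WT and 21859, 74327 and 64078 across KO replicates 1, 2 and 3. In CPM, KO replicate 1 at 820 was just above the highest WT library at 791, while the other KO libraries were at 2202 and 1742. The log2 fold change was 1.07 (SE 0.43, adjusted p = 0.0429) and 1.39 without KO replicate 1 (adjusted p = 0.000141). The call was lost when any other library was left out (adjusted p from 0.0933 to 0.14), with upper-quartile or library-total scaling (0.0568 and 0.0857), with limma-voom (0.064) and with the replicate block (0.0847). Tns1, for tensin 1, rose by 0.90 log2 units (SE 0.23, adjusted p = 0.0111), from 104 ± 15.4 to 195 ± 41.5 CPM, or adjusted p = 0.0528 and 0.0524 without WT replicate 1 or 2.

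Talin and vinculin, the core of the link, were not called. Tln1, for talin 1, which binds the beta tail and activates the integrin, had 9945, 11149 and 9955 counts across WT and 11075, 14435 and 14070 across KO. All KO libraries, at 382 to 428 CPM, were above the WT range of 312 to 350 (log2 fold change 0.30, SE 0.07, adjusted p = 0.0893). Tln1 was called with DESeq2 and without KO replicate 1. Vcl, for vinculin, had 4344, 4457 and 4648 counts across WT and 8875, 5937 and 6480 across KO, and KO replicate 1 at 333 CPM was apart from the others at 176. Its log2 fold change of 0.66 (SE 0.31, adjusted p = 0.0898) became 0.29 without KO replicate 1 and then passed the test (adjusted p = 0.0358). Vcl also passed with DESeq2 and with no filter on low counts. Vcl shares 2090 of its 8191 exon bases with Ap3m1 on the opposite strand. Tln2 was also higher in every KO library without being called (0.53 log2, adjusted p = 0.0549). It was called with DESeq2, with no filter on low counts and without WT replicate 3 or KO replicate 1. Actn4, Flnc and Tns3 overlapped between the groups, and Tns3 was called without KO replicate 1. Among all 40 tested members 67.5% did not overlap between the groups, 21 with KO above WT and 6 with KO below, against 49.6% of all tested genes, 23.8% above and 25.8% below.

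Kindlin and the complex that anchors it followed in part. Fermt2, for kindlin 2, which binds the beta tail beside talin (ENSMUSG00000037712, chromosome 14), had 2660, 2605 and 2458 counts across WT and 5588, 4471 and 5221 across KO. It rose by 0.96 log2 units (SE 0.21, adjusted p = 0.00695), from 82.8 ± 0.88 to 161 ± 42.2 CPM, and carries the CArG box shown above. Lims1, for PINCH1, measured 257 ± 16.3 and 281 ± 49.5 CPM (adjusted p = 0.549), a difference that turned negative with library-total scaling and without KO replicate 1. Lims2, for PINCH2, had 5, 10 and 12 counts across WT and 290, 84 and 47 across KO. It rose by 4.04 log2 units (SE 0.95, adjusted p = 0.0135), or 2.68 without KO replicate 1, and its adjusted p was 0.0523 to 0.0645 when a WT library was left out. Parva, for alpha-parvin, had 167 ± 4.49 and 210 ± 16.5 CPM with no overlap (log2 fold change 0.33, adjusted p = 0.0561). Parva was called with DESeq2 and without KO replicate 1.

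Ilk, for integrin-linked kinase, the centre of this complex, had only 3, 2 and 2 counts across WT and 1, 5 and 8 across KO. Of its 2744 annotated exon bases 2461, or 89.7%, are shared with genes on the opposite strand, Taf10 and Rrp8, which had 1273 to 2242 and 466 to 982 counts per library. Protein-coding genes with at least 80% of their exon bases shared in this way numbered 72, of which 13.9% had a mean of at least 1 CPM, against 48.8% of those with 50% to 80% shared, 74.1% of those with less and 50.7% of the 16882 with no shared base. The libraries were made with a kit whose strand setting in counting is not given in the sources used here. The part of the shared bases in the low Ilk counts was not tested.

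**Figure D4:**
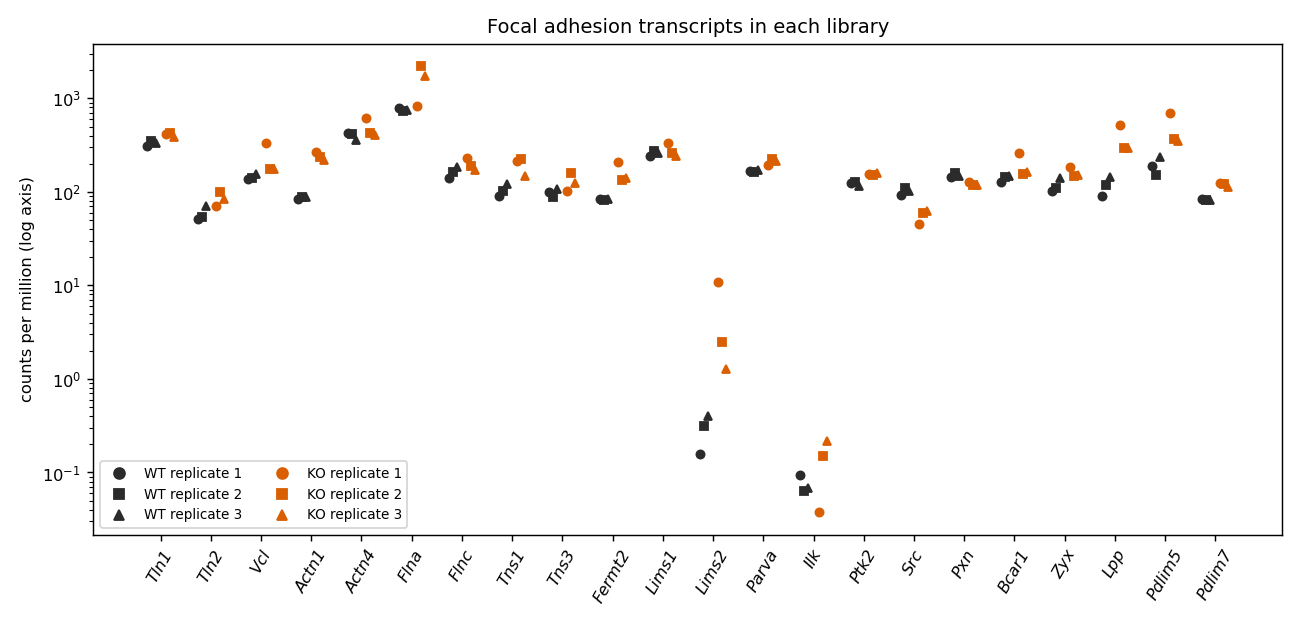
Level of each focal adhesion gene in each library, in CPM on a log axis, with WT in black and KO in orange and 1 symbol shape per replicate. KO replicate 1 (circle) is the lowest KO library for Flna and the highest for Vcl, Lpp, Pdlim5, Bcar1 and Lims2, and Ilk lies below 0.3 CPM in all libraries.

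Of the 4 kinases and scaffolds 1 rose and 1 fell, where 13.8% of all tested genes were higher and 14.5% lower. Ptk2, for focal adhesion kinase (ENSMUSG00000022607, chromosome 15), had 3962, 4067 and 3457 counts across WT and 4125, 5149 and 5879 across KO. In CPM the groups were tight and apart, at 123 ± 5.69 and 156 ± 3.70, and the log2 fold change was 0.34 (SE 0.04, adjusted p = 0.0369). This call was lost with upper-quartile or library-total scaling (adjusted p = 0.0684 and 0.321), with no filter on low counts (0.118), with the replicate block (0.115) and without any library but KO replicate 1 (0.0783 to 0.12). Src, the tyrosine kinase that works with FAK, fell by 0.86 log2 units (SE 0.16, adjusted p = 0.00512), from 101 ± 9.20 to 55.8 ± 9.03 CPM. Its counts were 2918, 3502 and 3029 in WT and 1210, 2016 and 2285 in KO, with every KO library below every WT library. Pxn, for the scaffold paxillin, was also lower in every KO library (log2 fold change -0.31, adjusted p = 0.0572) and was called without KO replicate 1 (-0.34, adjusted p = 0.0127), with DESeq2 (0.0218) and with upper-quartile and library-total scaling. Bcar1, for the Src substrate p130Cas, measured 140 ± 10.2 and 193 ± 60.5 CPM and was not called.

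Zyx, Lpp, Pdlim5 and Pdlim7, grouped here as LIM proteins of stress fibres, gave 3 calls, all higher. Over all tested genes 28.3% were called, 13.8% higher and 14.5% lower, and 4 genes are too few for a close comparison. Pxn, Lims1 and Lims2, described above, also encode LIM-domain proteins, and 1 of those 3, Lims2, rose. Lpp (ENSMUSG00000033306, chromosome 16), of the zyxin family, had 2909, 3817 and 4252 counts across WT and 13837, 9828 and 10847 across KO. It rose by 1.64 log2 units (SE 0.33, adjusted p = 0.00426), from 118 ± 26.1 to 368 ± 131 CPM. Pdlim5, which binds alpha-actinin and palladin (ENSMUSG00000028273, chromosome 3), had 6070, 4869 and 6937 counts across WT and 18671, 12522 and 12772 across KO and rose by 1.30 log2 units (SE 0.37, adjusted p = 0.0154). KO replicate 1 was the highest for both, and their log2 fold changes without it were 1.31 and 0.90. Pdlim5 lost its call without WT replicate 1 or 2 (adjusted p = 0.0647 and 0.0688). Pdlim7 rose by 0.53 log2 with little spread, from 82.6 ± 1.56 to 119 ± 6.81 CPM (adjusted p = 0.00721). Zyx, for zyxin, had 3255, 3486 and 4214 counts across WT and 4950, 4954 and 5615 across KO. Its ranges of 102 to 142 and 147 to 186 CPM did not overlap, but it was not called (log2 fold change 0.46, SE 0.18, adjusted p = 0.0719). With DESeq2 and without WT replicate 3 it was called.

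The balance of related genes was compared in 6 pairs, of which 4 did not overlap between the groups. The log2 ratio of Actn1 to Actn4, per kb of exon, was -2.17, -2.11 and -1.89 in WT and -1.04, -0.68 and -0.73 in KO, which means that Actn1 went from 0.24 to 0.567 of the Actn4 level. Lims1 exceeded Lims2 by 9.21 ± 0.63 log2 in WT and 5.74 ± 1.34 in KO. The ratio of Pdlim7 to Pdlim5 was lower and that of Tns1 to Tns3 higher in all KO libraries, with differences of -0.72 and 0.53 log2. Both margins were thin. For Pdlim7 to Pdlim5 the lowest WT library was at -0.653 and the highest KO library at -0.752. For Tns1 to Tns3 the highest WT library was at -0.299 and the lowest KO library at -0.274. For Flna to Flnc, KO replicate 1 at 1.83 was below the WT range of 2.02 to 2.49 and the other KO libraries at 3.56 and 3.33 were above it. The exact permutation p was 0.1 for the 4 pairs without overlap, 0.2 for Tln1 to Tln2 and 0.4 for Flna to Flnc, or 0.15, 0.24 and 0.4 adjusted over the 6 pairs, and 3 against 3 libraries allow no p below 0.1.

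**Figure D5:**
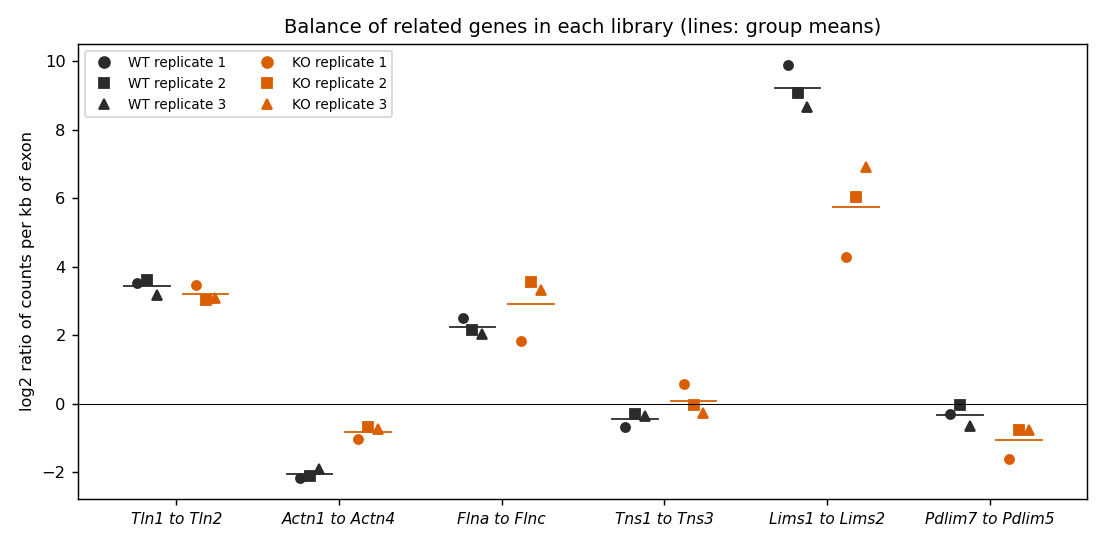
Log2 ratio of counts per kb of exon within 6 pairs of related genes (y axis), 1 point per library with group means as lines, WT in black and KO in orange. The Actn1 to Actn4 and Lims1 to Lims2 pairs are separated by the widest gaps, with differences of 1.24 and -3.47 log2, and KO replicate 1 lies below all WT libraries for Flna to Flnc.

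Of 52 other focal adhesion genes chosen by function 48 could be tested, and 15 of these were higher and 4 lower, or 39.6% called, with a median of 0.29 log2. Higher genes by smallest p were Rsu1, which binds PINCH1 (1.41 log2, SE 0.09, adjusted p = 0.000248), Csrp1, a LIM protein (1.59, SE 0.19, adjusted p = 0.000854), and Nexn, the actin-binding nexilin (2.05, SE 0.29, adjusted p = 0.000976). Efs, a p130Cas relative that docks Src, had 91, 74 and 71 counts across WT and 0, 0 and 1 across KO. Pdlim4 fell by 2.60 log2 units (SE 0.30, adjusted p = 0.000486), from 67.5 ± 4.56 to 11.1 ± 4.18 CPM, and Ajuba fell by 1.20. Of the relatives of Pdlim4, Pdlim5 and Pdlim7 rose. Pdlim1 and Pdlim2 were not called (0.29 and 0.31 log2, adjusted p = 0.1 and 0.128), and Pdlim3 had too few counts to test. With library-total scaling 10 genes of this list were lower, with 31.3% of all tested genes called. Without KO replicate 1, 9 were lower, with 42.3% of all tested genes called.

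Ligands of integrins were higher in the main. Of the 38 listed 37 could be tested, and 19 were higher and 3 lower, or 59.5% called, with a median of 0.96 log2. Over all tested genes 28.3% were called, 13.8% higher and 14.5% lower. The median level of the tested ligands was 97.6 CPM, against 24.1 over all tested genes, and the part of level in these counts was not tested. Fn1, for fibronectin, the ligand of alpha 5 beta 1, rose by 1.23 log2 units (SE 0.25, adjusted p = 0.00691). By smallest p the higher ligands were Col3a1 (5.04 log2, SE 0.42), Col4a2 (1.43, SE 0.05) and Ltbp1, for a latent TGF-beta binding protein (2.08, SE 0.18), with adjusted p = 0.000152, 0.000212 and 0.000237. The 3 that fell were laminin chains, Lama1 by 4.89 log2, Lama2 by 3.71 and Lamb3 by 1.53, from WT means of 3.47, 4.97 and 0.517 CPM. Both lists were chosen with earlier results of these data known, and the members, these genes and the smooth muscle markers were measured in the same libraries.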

How the data were processed

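RNA was sequenced from 3 WT and 3 KO samples. Each deposited table holds the authors' raw counts of reads per Ensembl gene for 1 library. TopHat2 2.1.0, HTSeq, DESeq2 and GRCm38.p4 are named in the submitters' processing notes, and a TruSeq v2 kit in the labels' protocols. Annotation release, strand setting and read filters: not given in the sources used here.

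Symbols, positions and exon lengths (union of exons) came from GENCODE for GRCm38, matching 46091 of 46603 identifiers. Genes passing filterByExpr were scaled by TMM and tested with edgeR 4.0.16 (quasi-likelihood, two-sided, R 4.3.3), genotype being the only term, with Benjamini-Hochberg adjustment across all tested genes. SE refers to the difference between mean log2 CPM values. Shares and ratios were compared by two-sided exact permutation tests (SciPy 1.17.1). Alternatives covered scaling, filters, DESeq2 1.42.0, limma-voom (limma 3.58.1), glmTreat, a replicate block and each library left out. The fit was tested on simulated data. Counting intervals and the limit of 3 counts cover counting error only.

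By rule, counts per library are printed for called members that changed by 1 log2 or more with 50 or more mean counts in their higher group, and for Itgb1, Itgav, Itga5, Vcl, Tln1, Zyx and Ptk2. For Itga1, Itga9, Fermt2, Src and Ilk they were added after values were seen. Of the other lists, up to 3 called genes per direction with the smallest p are named, and Fn1 was added after its value was seen. Members and lists were chosen with earlier results of these data known.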

Additional observations from a re-analysis of the deposited data

How the results depend on the processing

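Across up to 15 alternatives per tested member, glmTreat not among them, called members kept their direction wherever they were tested, and 12 of the 20 kept their call in all 15. Signs turned for 6 members that were not called. Library-total scaling gave log2 values of -0.0821 for Lims1, -0.12 for Itga2b, -0.18 for Itgav and -0.0342 for Itga6, and upper-quartile scaling -0.0353 for Itgav. With 1 library left out, Lims1 ranged from -0.0231 to 0.225, Itgav from -0.0549 to 0.0618 (-0.0049 without KO replicate 3), Itga10 from -0.159 to 0.19 and Itgb5 from -0.134 to 0.091 (0.0289 without KO replicate 2). The difference in Itga1 share ranged from -0.497 to 0.997 percentage points.

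Against 15 higher and 5 lower members, glmTreat with a bound of 1 log2 called 6 and 1, with 7.72% of all tested genes called against 28.3%. It called 4 higher and 2 lower other focal adhesion genes and 10 higher ligands. With the replicate number as a block 13 members were higher and 3 lower, and 3045 genes were called against 4255. Deviations of equally numbered libraries from their group means correlated at r = -0.101, 0.046 and -0.148, and those of differently numbered ones at -0.0439 to 0.168. With means of only 3 libraries per group, these values cannot decide whether equal numbers mark a shared batch. Leaving out each library in turn gave 10 to 21 higher and 2 to 6 lower members (10 higher without WT replicate 1 or 2, 21 without KO replicate 1, 2 lower without WT replicate 2, 3 without WT replicate 3 or KO replicate 3). It gave 10 to 17 higher and 4 to 9 lower other focal adhesion genes, and 16 to 23 higher and 2 to 4 lower ligands. Of all tested genes 14.9% to 42.3% were called in these fits. Library-total scaling gave 10 lower other focal adhesion genes and 5 lower ligands, with 13 members higher and 6 lower. Library-total scaling called 31.3% of all tested genes. It moved the median of all genes from 0.0099 to -0.193 log2 and the higher share of all calls from 48.7% to 28.8%. DESeq2 called 22 members higher and 6 lower, with 34.9% of all tested genes called. Fits without a library have fewer samples, and where a call was lost the cause was not tested.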
